A study of Mus musculus with 22 samples.

Results

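Of the 22 single mouse astrocytes of the study, 10 are described here, namely the 5 cells that answered EtOH (ethanol) with a mixed calcium signal (M-type) and the 5 cells that gave no calcium response (NR). The remaining 12 cells, 6 with a sustained signal (S-type) and 6 with a transient signal (T-type), entered the size factors and served as a reference for the genes named below. All cells came from primary cultures of the cortex of single C57BL/6 pups aged P0-P1, grown in serum, shaken and treated with cytosine arabinoside to remove other cell types. They were kept without serum before imaging, loaded with the calcium indicator Fluo-4, exposed to EtOH and then ATP on the microscope stage, and taken up singly by micropipette once the response had been read. The M-type class is defined by a high, complex signal with features of both the sustained and the transient form, and an NR cell was exposed to EtOH like the others but stayed below the response threshold, so that NR is not an unexposed control. The comparison addresses whether astrocytes that answer EtOH with the highest calcium signal held other transcripts than astrocytes that did not answer. No label ties a cell to a pup, a culture or a day, the library numbers of each type run in a block of their own, and the order of the libraries and the type therefore cannot be told apart. Each type was treated as 1 sample, and no p-value was computed.

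Astrocytes are electrically silent cells that signal by calcium. Receptors coupled to Gq proteins activate phospholipase C, which makes inositol trisphosphate. This opens receptor channels in the endoplasmic reticulum (ER), and the released calcium is pumped back by SERCA, refilled by store-operated entry through STIM and ORAI proteins, extruded by plasma membrane pumps and exchangers, and read by calmodulin. The same cells store and burn glucose, pass lactate to neurons, clear glutamate and potassium, and in a neonatal culture many of them still divide.

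The M-type cells had 19030121 to 22131076 reads in genes and the NR cells 15057892 to 19930655. Between 9272 and 12188 genes had a read in an M-type cell and between 9696 and 13070 in an NR cell. Of 23453 gene symbols, 16074 had a read in the 10 cells and 9314 had a read in at least 8 of them; the values below cover these 9314 genes unless stated. A normalized count is the number of reads of a gene divided by the cell's size factor, the level of a type is the mean normalized count of its 5 cells, and a log2 ratio is the log2 of the M-type level over the NR level. The reads carry no molecular identifiers, so intervals from read numbers cover counting error only, and the spread between cells is shown by the values of the single cells and by the range of a ratio when each of the 10 cells is left out in turn (left-out range). The left-out range holds the choice of genes fixed.

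The defining astrocyte markers had reads in every cell, at very unequal levels. Each of Gfap, Slc1a3, Aldh1l1, Glul and Vim had reads in all 10 cells, and together they took 11126 to 17222 CPM (reads scaled to a common library total) in M-type cells and 4172 to 16845 in NR cells. This sum mainly follows Vim, with 1186020 reads in M-type and 637214 in NR cells, beside 95751 and 92888 for Slc1a3, the next. Gfap ran from 2.50 to 6788 normalized counts in M-type and from 62.1 to 11046 in NR cells. Aldh1l1 ran from 189 to 1505 and from 32.9 to 2270. Of the defining markers of other cell types, the endothelial markers Cdh5, Cldn5 and Tek, the microglial marker P2ry12, the oligodendrocyte lineage marker Sox10 and the pericyte marker Rgs5 had no read in any of the 10 cells. Others had reads in some of the cells. Pecam1, the fourth endothelial marker, had 34 reads in 1 NR cell. Pdgfrb, a pericyte and fibroblast receptor, had reads in 3 M-type cells (at most 236 normalized counts) and in all 5 NR cells (14.4 to 1430). The neuronal markers Snap25 and Rbfox3 reached 258 and 164.5 in NR cells and at most 0.432 in M-type cells. The other neuronal markers, Tubb3 and Syt1, reached 307 and 4.38 in M-type cells and 298 and 18.2 in NR cells. Pdgfra, of oligodendrocyte precursors, reached 1213 in M-type and 576 in NR cells. Summed over the whole lists, 18 neuronal genes had 100.3 to 536 CPM in M-type and 91.9 to 611 in NR cells, 12 endothelial genes 23.8 to 470 and 23.8 to 646, and 14 mural and fibroblast genes 34.2 to 3132 and 219.9 to 2175. Of these lists 3, 1 and 4 members passed the filter, and their part in the differences was not tested. The 5 defining microglial markers summed to at most 0.242 CPM in an M-type cell and to 0 to 34.3 in an NR cell. Over the whole microglial list of 19 genes, M-type cells had 1.10 to 81.3 CPM and NR cells 4.98 to 451. Only 5 of the 19 passed the filter, Laptm5, Mpeg1, Tyrobp and Cd68 among them, and all 5 were at least 2-fold lower in M-type, or 3 of them without NR cell 4. Laptm5, a lysosomal protein of blood and microglial cells, had 211, 378, 1.44, 742 and 0 normalized counts in NR cells 1 to 5 and at most 5.63 in an M-type cell. Mpeg1, a macrophage pore protein, had 85.0, 189, 2.16, 966 and 0 in the NR cells and at most 8.76 in an M-type cell. The microglial transcripts therefore lay in NR cells 1, 2 and 4, and their part in the other differences was not tested. Olig1 and Olig2, transcription factors of the oligodendrocyte lineage, had reads in all 10 cells, with Olig1 at 387 to 20225 normalized counts in M-type and 2183 to 6901 in NR cells.

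At a limit of 2-fold, 1355 of the 9314 genes (14.5%) were higher in M-type and 2184 (23.4%) were lower. The median log2 ratio over all genes was -0.19, with a left-out range of -0.23 to -0.09. Single cells weighed heavily on these counts. In 36.2% of the genes 1 cell supplied the majority of the M-type sum, and in 45.3% of the genes 1 cell did so for NR. The call held whichever cell was left out for 542 of the higher genes (40.0%) and 819 of the lower genes (37.5%). The level plot of all genes shows the spread, which widens towards low levels.

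**Figure D1:**
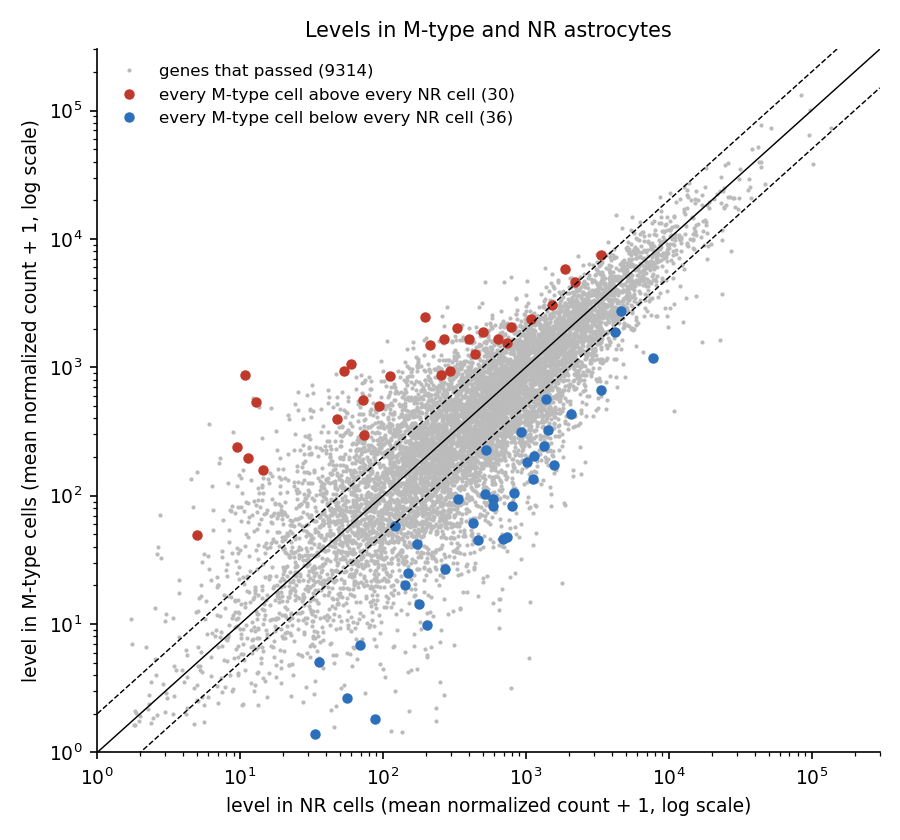
Level of each of the 9314 genes in NR cells (x axis) and M-type cells (y axis), as mean normalized count + 1 on log scales; solid line, equal levels; dashed lines, the 2-fold limits. Red points are the 30 genes with every M-type cell above every NR cell, blue points the 36 genes with every M-type cell below every NR cell, and most of both groups lie beyond the 2-fold lines.

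Genes in which the cells of both types did not overlap were rare. Every M-type cell was above every NR cell in 30 genes (0.322%) and below every NR cell in 36 genes (0.387%). The gap between the nearest cells of both types was at least 2-fold in 7 of the 30 and in 1 of the 36. Among the 27 and 30 of these genes with a level of at least 50 and a gene name that was no clone name, those whose ratio held up best when a cell was left out are described next, 11 above NR and 12 below. With 5 cells per type, some of the 9314 genes would separate even if the type labels were dealt to the cells at random. How many would do so was not examined. The counts of 30 and 36 are therefore not shown to exceed what random labels give. Since the genes described next were picked for not overlapping, their values and their grouping by function are a description. They are not shown to be traits of M-type cells. The plot of the 23 genes by cell shows every value.

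**Figure D2:**
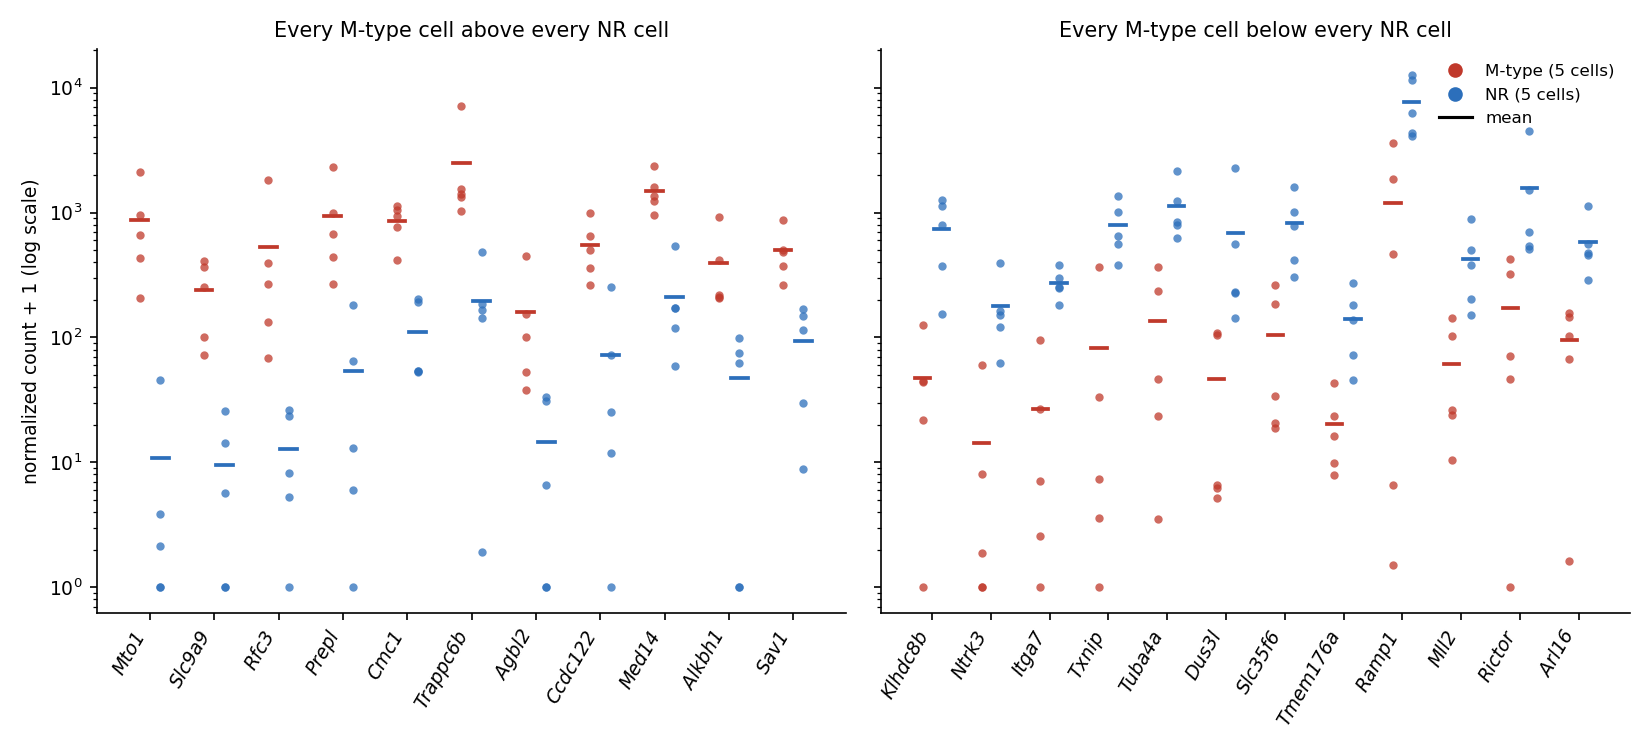
Normalized count + 1 (log scale) of 23 genes in each of the 5 M-type cells (red points) and 5 NR cells (blue points); horizontal lines are means. The left panel holds 11 genes with every M-type cell above every NR cell and the right panel 12 with every M-type cell below; in the left panel 7 of the 11 genes have an NR cell without a read, drawn at 1.

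A first set of the genes above NR encodes mitochondrial proteins. Mto1, which modifies mitochondrial tRNA (chr9:78448208-78475348), had 2106, 956, 204, 659 and 433 normalized counts in M-type cells 1 to 5 and 44.9, 1.13, 2.88, 0 and 0 in NR cells 1 to 5. The lowest M-type cell was thus above the highest NR cell by more than the 2-fold limit, and the log2 ratio was 6.48 with a left-out range of 5.85 to 9.76. Its exons overlap those of a predicted gene on the other strand, and whether the counting used the strand is not given in the sources used here. Cmc1, an assembly factor of cytochrome c oxidase, had 941, 1134, 760.0, 413 and 1052 against 52.2, 192, 53.2, 202 and 52.8. Its log2 ratio was 2.96 (2.78 to 3.29).

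Others act in DNA replication, transcription and repair. Rfc3, a subunit of the clamp loader that places PCNA on DNA (chr5:151642756-151651242), had 1809, 132, 267, 393 and 67.8 in the M-type cells and 4.25, 22.7, 25.2, 7.18 and 0 in the NR cells. M-type cell 1 held the bulk of its reads, and the log2 ratio of 5.49 came to 4.18 without that cell. Med14, a scaffold subunit of the Mediator complex encoded on the X chromosome, had 2353, 1613, 1229, 1349 and 963 against 57.7, 172.4, 169.7, 541 and 118. The log2 ratio was 2.83 (2.58 to 3.54). The X-linked transcript Xist was itself uneven, at 656 and 11941 normalized counts in M-type cells 3 and 4 and at most 4.75 in the other 8 cells. Med14 was 963 to 2353 in the 3 M-type cells with at most 4.75 Xist counts. Since Med14 was picked for not overlapping, any of its M-type cells lie above NR, and a relation to Xist was not tested. Alkbh1, a dioxygenase that acts on tRNA and DNA, had 413, 923, 219, 208 and 207 against 61.3, 74.3, 97.8, 0 and 0.

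A further set concerns membranes, vesicles and the cytoskeleton. Slc9a9, an endosomal sodium-proton exchanger (chr9:94669909-95230445), had 366, 252, 70.8, 410.4 and 100.2 in M-type and 13.4, 25.0, 0, 0 and 4.64 in NR, a log2 ratio of 4.80 (4.48 to 5.74). Trappc6b, a subunit of the TRAPP vesicle tethering complex, had 1545, 7108, 1325, 1023 and 1402 against 165.1, 183.2, 485, 142 and 0.927. M-type cell 2 stood above the other M-type cells in this gene, and without it the log2 ratio of 3.67 came to 2.76. Agbl2, a carboxypeptidase that trims tubulin tails, had 51.9, 447, 99.4, 153.04 and 36.7 against 29.7, 0, 32.4, 0 and 5.56, so that its nearest cells almost touched.

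The remaining named genes above NR were Prepl, a prolyl endopeptidase-like hydrolase, Ccdc122, a coiled-coil protein, and Sav1, the scaffold of the Hippo kinases. Prepl had 2318, 670.1, 998, 269 and 442 in M-type and 12.1, 182.1, 5.03, 63.4 and 0 in NR, a log2 ratio of 4.16 (3.50 to 5.54). Ccdc122 had a log2 ratio of 2.94 (2.62 to 4.36), with the lowest M-type cell at 262 and the highest NR cell at 252. Sav1 had 871, 499, 371, 261 and 483 against 148, 113, 7.91, 169 and 28.7, a log2 ratio of 2.41 (2.11 to 2.74). Prepl, Ccdc122, Sav1 and Alkbh1 share exon positions with a gene on the other strand, and their counts may hold reads of both.

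Among the genes below NR, several encode receptors and surface proteins. Ntrk3, the neurotrophin-3 receptor TrkC (chr7:78175959-78738012), had 58.8, 0, 7.03, 0 and 0.864 in the M-type cells and 151.2, 161.7, 61.8, 395 and 121 in the NR cells. M-type cell 1 reached nearly the lowest NR cell while the other M-type cells were at or close to 0, and the log2 ratio was -3.74 (-6.50 to -3.21). Itga7, a laminin-binding integrin chain, had 25.6, 0, 95.2, 1.56 and 6.05 against 181.5, 250.1, 253, 296 and 379. The NR cells were close to each other in Itga7, and the log2 ratio was -3.40 (-5.03 to -3.08). Ramp1, the partner protein that makes the calcitonin receptor-like receptor respond to CGRP (chr1:91179822-91225196), was the most highly read of the 23 genes. It had 5.63, 463, 1869, 0.519 and 3579 normalized counts in M-type and 4069.8, 6240.5, 12673, 4322 and 11457 in NR, a log2 ratio of -2.71 (-3.73 to -2.39). Atp1b2, an astrocyte subunit of the sodium-potassium pump, also had every M-type cell below every NR cell, at 1.25, 278, 69.9, 365 and 187.1 against 1425, 1434, 768, 419 and 1037.

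Txnip, the thioredoxin-binding protein that is induced by glucose and restrains glucose uptake (chr3:96557957-96561883), had 0, 6.30, 32.3, 368 and 2.59 in M-type and 558, 1369, 1014, 382 and 652 in NR. M-type cell 4 carried nearly all M-type reads and lay just under the lowest NR cell, and without it the log2 ratio went from -3.28 to -6.27. Rictor, the defining subunit of mTOR complex 2, had 70.7, 0, 319, 424 and 45.4 against 1526, 538, 704, 508 and 4539.7, with a log2 ratio of -3.19 that came to -2.25 without NR cell 5. Mll2, an older symbol of the histone H3 lysine 4 methyltransferase Kmt2d, had 25.0, 23.1, 102, 142 and 9.50 against 501, 149.7, 885, 377 and 203.

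Dus3l, which makes dihydrouridine in tRNA, had 5.63, 4.20, 104, 107 and 5.18 in M-type and 225, 142, 229, 560.4 and 2285 in NR; NR cell 5 held the majority of its NR sum, and the log2 ratio of -3.93 came to -2.67 without that cell. Tuba4a, an alpha-tubulin, had 2.50, 22.4, 233, 45.7 and 365 against 795, 1239, 619.9, 844 and 2146, a log2 ratio of -3.08 (-3.90 to -2.71). Klhdc8b, a kelch repeat protein (chr9:108447636-108461581), had 0, 126, 42.7, 43.6 and 20.7 against 154.2, 1249, 1137, 374 and 798. The log2 ratio was -3.99 (-4.79 to -3.67). Slc35f6, Tmem176a and Arl16 had log2 ratios of -2.99, -2.88 and -2.64. Txnip, Klhdc8b, Itga7, Tuba4a and Tmem176a also share exon positions with a gene on the other strand, so that their counts may hold reads of both genes.

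The levels in the S-type and T-type cells are set beside those of M-type and NR for some of these genes; no test was made, and the NR cells are shared between these readings. Mto1 had 228 to 3719 normalized counts in the 6 S-type cells, all above NR, while the T-type cells were split, with 4.22, 3.63 and 5.45 in 3 of them, within the NR values, and 436, 1185 and 1331 in the others. Rfc3 had a median of 446 in S-type and 378 in T-type beside 267 in M-type and 7.18 in NR, with 1 T-type cell at 8.45, within the NR values. Slc9a9 had its median at 18.8 in S-type, at 0 in T-type and at 252 in M-type, with single S-type and T-type cells up to 481 and 117. Tuba4a had medians of 2147 in S-type, 642 in T-type, 844 in NR and 45.7 in M-type, with T-type cells from 0 to 9626. Ramp1 had medians of 4666, 5441, 6240 and 463 in the same order, with 1 T-type cell at 76304. In both genes M-type had the lowest median, and single S-type or T-type cells lay among the M-type cells. Ntrk3 had a median of 15.7 in S-type and 0 in T-type, beside 151.2 in NR, with 1 S-type cell at 154.5. By log2(normalized count + 1), the S-type median lay nearer to the M-type than to the NR median in 19 of the 30 genes above NR. The T-type median did so in 16, and of the 36 genes below NR this was so in 17 and 26. These genes were picked on their M-type and NR values, and the share over all genes was not examined. A median of 0, as for T-type in Rictor and Agbl2, counted toward the type with the lower level. The counts therefore do not place S-type or T-type nearer to M-type.

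The genes of DNA replication formed the list with the highest median. Of 48 measured S phase genes 27 passed, their median log2 ratio was 0.84 with a left-out range of 0.45 to 1.26, and 12 were at least 2-fold higher while 1 was lower. Over all genes the shares were 14.5% and 23.4%. Leaving out each cell gave between 9 and 15 higher members, the fewest without M-type cell 2, and up to 4 lower members, the most without the same cell. Summed over the list, the M-type cells had 0.1345%, 0.310%, 0.150%, 0.135% and 0.164% of their reads in these genes and the NR cells 0.0805%, 0.117%, 0.0870%, 0.117% and 0.0607%. In this sum the lowest M-type cell was above the highest NR cell, and M-type cell 2 stood well above the other M-type cells. Rpa1, the member with the most reads, weighs heavily on it, with 69503 reads in M-type and 25698 in NR cells. The members as a group overlapped. Their median log2(normalized count + 1), each less its mean over the 10 cells, was -2.76, 2.49, 1.54, 1.16 and 1.58 in M-type cells 1 to 5. In NR cells 1 to 5 it was -1.43, 1.36, -0.83, -0.15 and -3.08.

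In this list 2 of the 27 members that passed, Rfc3 and Rpa1, had every M-type cell above every NR cell, as had 0.322% of all genes. Rpa1, the large subunit of the single-strand binding protein RPA, had 11478, 5808, 5485, 7946 and 6846 in M-type and 1736, 4526, 1878, 5084 and 3475 in NR, a log2 ratio of 1.17 (0.97 to 1.37). Pcna, the sliding clamp, was uneven, with 1558, 14692, 3330.1, 1673 and 2033 against 3872, 1796, 2474, 542 and 6120.3, and its log2 ratio of 0.65 was -0.46 without M-type cell 2. Rfc1, the large clamp loader subunit, had a log2 ratio of -0.21. Its left-out range of -0.64 to 1.05 held 0, so that its direction depended on the cells included. Pola1, Ccne2, Mcm7 and Mcm4, which were singled out after their values were seen, had the largest ratios after Rfc3. Pola1, the catalytic subunit of the primase-polymerase, had 0.626, 117, 78.8, 105 and 48.0 against 0, 7.37, 0.719, 0.598 and 0, which is 650 reads in all M-type cells and 15 in all NR cells. Mcm7, a subunit of the replicative helicase, had 255, 58.8, 22.0, 49.8 and 273 against 3.04, 42.0, 0, 9.57 and 0. The helicase subunit Mcm6 had a log2 ratio of -0.12, near the median of -0.19 over all genes. The list of G2 and mitosis genes, of which 16 of 45 passed, had a median of 0.20 with a left-out range of -0.58 to 0.42. Of these 2 were higher (12.5%, near the 14.5% of all genes) and 0 lower. Without M-type cell 2, 6 of the 16 were 2-fold lower.

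Promoters of replication genes often hold sites for E2F, the family of factors that turns them on before S phase. The letters TTTGGCGC, TTTCCCGC or TTTCGCGC, on either strand and overlaps allowed, stood in the 250 bases before the start of 8 of the 38 S phase genes with a RefSeq promoter (21.1%), and in 1.78% of all promoters. Rfc3, Pola1, Mcm7, Gins3 and Mcm6 were the matched genes among those that passed. The 250 bases of Pola1, which was higher in M-type, and of Mcm6, which was not, are shown to set a match beside both outcomes (RefSeq, GRCm38.p6, minus strand of chrX:93632156-93632405 and of chr1:128359706-128359955), with the matched letters in capitals.
Pola1: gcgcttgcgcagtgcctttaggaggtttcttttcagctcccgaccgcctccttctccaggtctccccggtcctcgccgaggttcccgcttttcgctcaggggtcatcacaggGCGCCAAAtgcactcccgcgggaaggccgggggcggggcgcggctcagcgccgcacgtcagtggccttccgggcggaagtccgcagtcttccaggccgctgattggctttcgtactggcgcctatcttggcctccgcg
Mcm6: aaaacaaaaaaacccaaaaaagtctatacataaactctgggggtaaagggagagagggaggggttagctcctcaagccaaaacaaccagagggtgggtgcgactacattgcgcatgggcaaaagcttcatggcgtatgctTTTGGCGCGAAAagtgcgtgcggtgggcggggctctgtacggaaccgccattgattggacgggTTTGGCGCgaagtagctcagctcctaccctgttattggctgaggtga
Mcm6 held 3 matches, of which a pair overlap, and Pola1 held 1. Both were chosen for their ratios. Of the other matched genes that passed, Rfc3, Mcm7 and Gins3 had log2 ratios of 5.49, 3.59 and 1.52, beside 5.33 for Pola1 and -0.12 for Mcm6. A match is a description of letters only, and a relation of matches to levels was not tested.

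The ribosomal proteins were the largest list above the median of all genes. Of 77 members that passed, 69 had a positive log2 ratio, against 43.5% of all genes. The median was 0.45 (0.08 to 0.76), while only 4 were at least 2-fold higher (5.19%, against 14.5% of all genes). M-type cells had 8.01%, 4.74%, 3.83%, 2.70% and 4.42% of their reads in these genes, and NR cells 1.73%, 3.29%, 2.52%, 5.50% and 3.15%. M-type cell 1 was the highest and NR cell 1 the lowest, and the other cells of both types overlapped. Without NR cell 4 the number of 2-fold members went from 4 to 21, and without M-type cell 1 to 1. The mitochondrial ribosomal proteins had a median of -0.11 (-0.32 to 0.21), with 10 of 74 higher and 10 lower (13.5% each, against 14.5% and 23.4% of all genes). Mrpl55, a protein of the large mitochondrial subunit, had every M-type cell below every NR cell, at a log2 ratio of -1.21. Oxidative phosphorylation had a median of -0.30 (-0.50 to -0.02), with 0 of 77 members 2-fold higher and 6 lower (7.79%, against 23.4% of all genes); without NR cell 5 none was lower and without NR cell 1 12 were. Translation factors, splicing factors, the proteasome and the Rab GTPases had medians between -0.24 and -0.05, close to that of all genes.

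**Figure D3:**
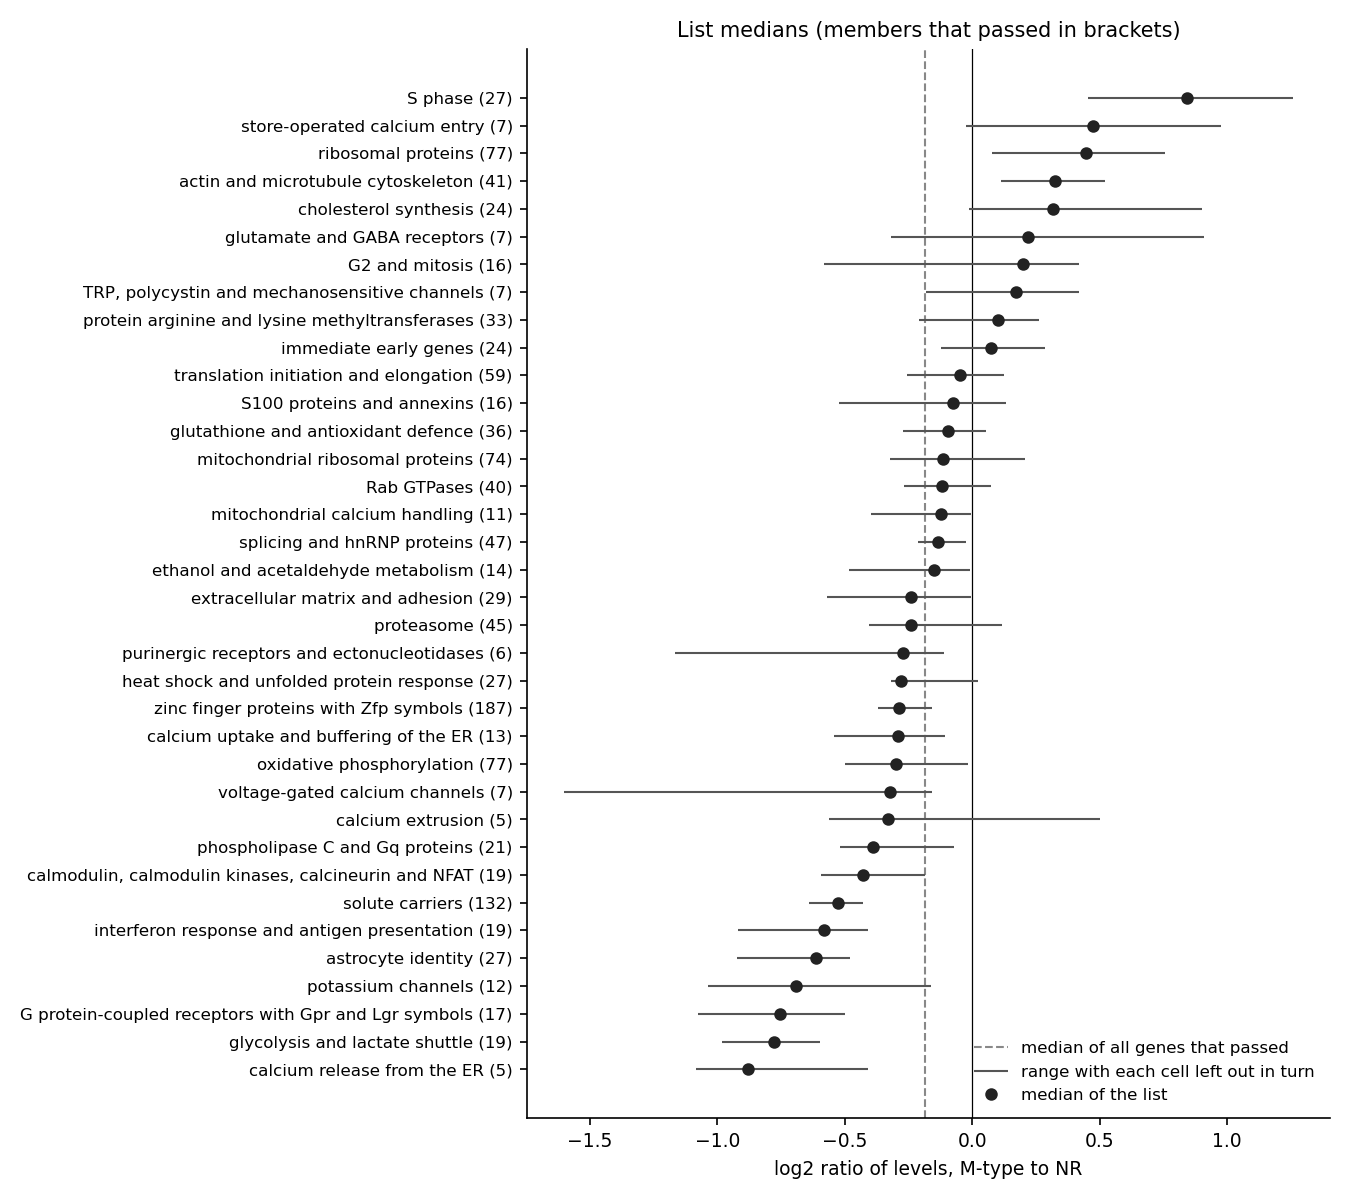
Median log2 ratio of M-type to NR level over the members that passed, for each list with 5 or more such members (number in brackets); dots are medians, bars the range with each cell left out in turn, the dashed line the median of all genes. The microglial list, at -4.50, is outside the axis; S phase lies highest at 0.84 and calcium release from the ER lowest at -0.88.

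Genes of glucose breakdown were lower in M-type as a group. Of 23 glycolysis and lactate shuttle genes 19 passed, and the median was -0.78 (-0.98 to -0.60). Of the 19, 18 had a negative and 1 a positive log2 ratio, where 43.5% of all genes had a positive ratio. At 2-fold, 7 were lower (36.8%, against 23.4% of all genes, and 5 to 9 with a cell left out) and 0 higher, also with each cell left out in turn. These genes took 0.396%, 0.369%, 0.290%, 0.519% and 0.499% of the reads of the M-type cells and 0.365%, 0.713%, 0.665%, 0.567% and 0.890% of those of the NR cells. NR cell 1 lay within the M-type values and the other NR cells above them. Ldhb, the heart-type lactate dehydrogenase chain, had 4105, 7590.2, 2294, 16467 and 10982 normalized counts in M-type and 7970.2, 15620.4, 14787, 11432 and 25041 in NR, a log2 ratio of -0.85 (-1.26 to -0.59). Pgk1, phosphoglycerate kinase, had -0.22 (-0.43 to 0.10), and Ldha, the muscle-type lactate dehydrogenase chain, 0.13 (-0.29 to 0.29). Aldoc, Gpi1, Tpi1 and Slc16a1, singled out after their values were seen, had log2 ratios of -2.49, -1.82, -1.63 and -1.63. Tpi1, triose phosphate isomerase, had 895, 1547, 659, 702 and 2126 against 1581, 1773, 1789.9, 7387 and 5827, with M-type cell 5 above 3 of the NR cells. Slc16a1, a lactate carrier, had 82.6, 4439, 743, 1203 and 410.0 against 5983, 3156, 1089, 712 and 10386, so that M-type cell 2 was above 3 NR cells. Txnip, described above, is the glucose-responsive gene whose cells did not overlap.

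The letters ACGTG, the core of the sites of hypoxia-inducible factors, stood on either strand in the 250 bases before the start of 10 of 22 genes of this list (45.5%), and in 18.5% of all promoters. The promoters of Slc16a1, which was lower in M-type, and of Ldha, which was even, are shown (RefSeq, GRCm38.p6, plus strand of chr3:104638414-104638663 and chr7:46845554-46845803), with the matches in capitals; CACGTG reads as a match on each strand.
Slc16a1: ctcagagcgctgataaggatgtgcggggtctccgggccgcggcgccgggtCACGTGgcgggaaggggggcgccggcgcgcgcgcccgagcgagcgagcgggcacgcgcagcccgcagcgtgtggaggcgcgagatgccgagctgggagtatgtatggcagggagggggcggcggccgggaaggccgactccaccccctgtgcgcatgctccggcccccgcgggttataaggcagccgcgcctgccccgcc
Ldha: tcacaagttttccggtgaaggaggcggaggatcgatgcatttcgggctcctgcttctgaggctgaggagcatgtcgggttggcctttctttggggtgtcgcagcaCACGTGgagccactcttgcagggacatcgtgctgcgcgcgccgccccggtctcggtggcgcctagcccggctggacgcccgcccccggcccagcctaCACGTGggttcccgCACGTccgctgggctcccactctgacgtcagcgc
Counted per strand, Ldha held 5 matches and Slc16a1 held 2. This pair too was chosen for its ratios, which were -1.63 for Slc16a1 and 0.13 for Ldha, and a relation of matches to levels was not tested.

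**Figure D4:**
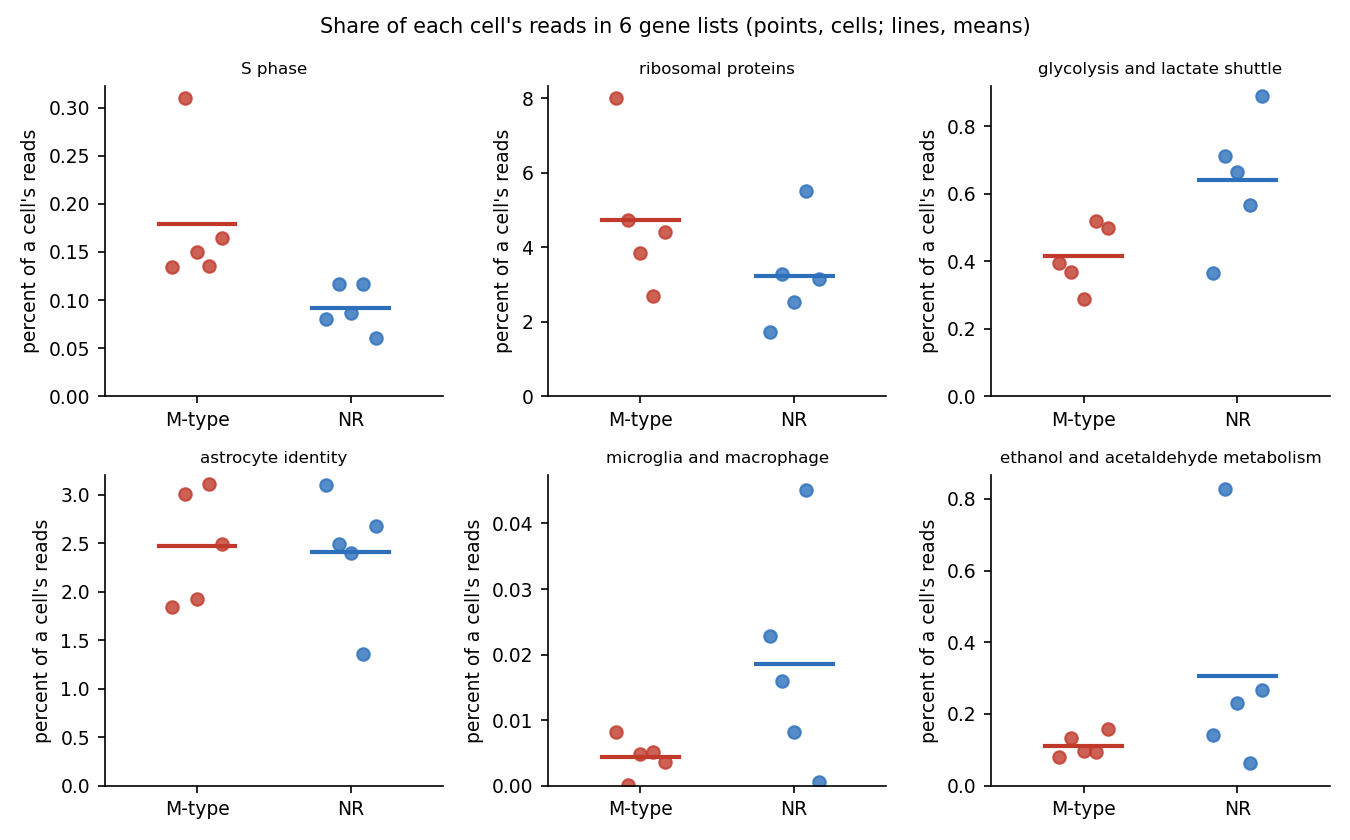
Percent of each cell's reads (y axis, from 0) in 6 gene lists; points are the 5 M-type (red) and 5 NR (blue) cells, lines the means. S phase is the panel in which the summed shares of the types do not overlap, with M-type cells from 0.1345% to 0.310% and NR cells from 0.0607% to 0.117%. That sum is weighted to its most read member, Rpa1. Single NR cells stand out for microglial genes and for EtOH-metabolizing enzymes.

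For the calcium machinery, the ER release list had a median of -0.88 (-1.08 to -0.41). Among lists with 5 or more members that passed, this was the lowest after the microglial list. All 5 members that passed were below 0, where 43.5% of all genes were above 0. Of the 5, 2 were at least 2-fold lower (40.0%, against 23.4% of all genes). Without NR cell 1 none of them was 2-fold lower and without NR cell 4 4 were. Itpr1, an inositol trisphosphate receptor, had 1551, 1376, 1514, 1029.8 and 2159.7 in M-type and 2984, 1453, 1926, 1752 and 5928 in NR. Itpr1 was even within M-type, NR cell 5 was far above the rest, and the log2 ratio was -0.88 (-1.04 to -0.41). Itpr2, the receptor usually named as the main one of astrocytes and added here after its values were seen, had 23.1, 15.4, 158, 369 and 109 against 1173, 26.1, 157, 0 and 22.2. Its log2 ratio of -1.03 rested on NR cell 1 and was 1.39 without it. Tmco1, a calcium leak channel of the ER, and Pdzd8, a protein of ER contact sites, had -0.64 (-0.95 to 0.10) and -0.78 (-1.08 to -0.35).

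In the list of uptake and buffering of the ER, 13 of 18 passed, with a median of -0.29 (-0.54 to -0.11), 3 lower and 0 higher. The share of lower members, 23.1%, was near the 23.4% of all genes. Atp2a2, the SERCA pump that refills the store, had 2207, 3249, 3113, 6780.0 and 2305 normalized counts in M-type and 8004, 7408, 6722, 5027 and 14612 in NR. M-type cell 4 was above 2 of the NR cells and the other 4 M-type cells were below all of them, and the log2 ratio was -1.24 (-1.62 to -0.94). Hspa5, the main ER chaperone, had -1.26 (-1.59 to -0.80), Canx 0.04 and Calu -0.29. Store-operated entry had 7 of 12 genes that passed and a median of 0.47 (-0.02 to 0.97). The sensor Stim2 had 0.81 (0.24 to 1.05) and Stim1 -1.03 (-2.67 to -0.54), so that the sensors lay on different sides. Tmem66, a negative regulator of this entry also known as Saraf, had -0.31.

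Of the voltage-gated calcium channels 7 of 21 passed, with a median of -0.32 that came to -1.60 without M-type cell 4. Of the 7, 3 were lower (42.9%, against 23.4% of all genes) and 1 higher (14.3%, near the 14.5% of all genes). Cacna1a, the P/Q-type pore, had 501, 26.6, 308, 264 and 249 in M-type and 51.6, 134, 85.6, 79.5 and 15.8 in NR, a log2 ratio of 1.88 (1.53 to 2.21). M-type cells 1, 3, 4 and 5 were above all NR cells and M-type cell 2 lay among them. Cacnb2, an auxiliary subunit, had 90.7, 111, 39.9, 45.1 and 33.7 against 422, 1622, 244, 285 and 0, a log2 ratio of -3.00 (-3.33 to -1.89). Here the cells separated except for NR cell 5, which had no read. The list of TRP, polycystin and mechanosensitive channels (7 of 32 passed) had a median of 0.17 (-0.18 to 0.42), with Pkd2 at 0.58, Trpm7 at 0.23 and Pkd1 at -0.34.

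Among the extrusion genes 5 of 13 passed. Atp2b1, a plasma membrane calcium pump, had 2579, 2186, 1922, 1984 and 1517 in M-type and 2751, 2918, 4062, 1709 and 12569.7 in NR, a log2 ratio of -1.24 that was -0.49 without NR cell 5. Atp2b4, a second pump, had 0.81 (0.50 to 1.26), and the sodium-calcium exchanger Slc8a1 -0.37 (-0.85 to 0.35). Slc24a5, a potassium-dependent exchanger of intracellular membranes, had 521, 1195, 77.4, 20.8 and 786 against 26.7, 13.0, 10.8, 48.4 and 17.6. M-type cell 4 lay among the NR cells, the other M-type cells lay above them, and the log2 ratio was 4.48 (3.91 to 4.93). Its exons overlap those of Myef2 on the other strand. Mitochondrial calcium handling (11 of 12 passed) had a median of -0.12, with the channel genes Vdac1, Vdac2 and Vdac3 between -0.12 and 0.25.

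Upstream of release, the list of phospholipase C and Gq genes (21 of 33 passed) had a median of -0.39 (-0.52 to -0.07). Of its members 9 were lower (42.9%, against 23.4% of all genes) and 2 higher (9.52%, against 14.5%). Gnaq, the Gq alpha subunit, had 10796, 12382, 7946, 3322 and 4471 in M-type and 3264, 2028, 9172, 6903 and 5203 in NR, with a log2 ratio of 0.55 (0.32 to 0.84) and overlapping cells. Rgs2, which shortens Gq signals, had -1.02 (-1.68 to -0.70). Plcl2, a phospholipase-like protein without catalytic activity, had 0, 2.10, 128, 1.04 and 8.21 against 532, 382, 0, 430.0 and 0.927, and Plch1, a catalytic enzyme, 701, 14.7, 425, 194 and 0.432 against 184, 14.7, 28.0, 0 and 0. Both genes were split between high and low cells within each type, and the log2 ratios of -3.27 and 2.56 describe which type held more of the high cells. Of the purinergic genes 6 of 26 passed, and Adora1, the adenosine A1 receptor, had 168, 544, 47.4, 706 and 701 against 2656, 1575, 1605, 565 and 591, a log2 ratio of -1.69 (-1.94 to -1.32). P2ry2, a Gq-coupled ATP receptor, had -0.01 (-0.42 to 0.34). Of the glutamate and GABA receptors 7 of 34 passed, with Gria3, an AMPA receptor subunit, at 1.01 (0.73 to 1.41) and Gabrb1, a GABA-A receptor subunit, at -2.52 (-3.61 to -1.12). The orphan and adhesion receptors with Gpr and Lgr symbols (17 of 101 passed) had a median of -0.76 (-1.07 to -0.50). Of these 7 were lower (41.2%, against 23.4% of all genes) and 1 higher (5.88%, against 14.5%). The potassium channels (12 of 95 passed) had a median of -0.69 (-1.04 to -0.16). Kcnj10, the Kir4.1 channel that clears potassium, had -0.55 (-0.96 to -0.01).

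Downstream, the list of calmodulin, calmodulin kinase, calcineurin and NFAT genes (19 of 27 passed) had a median of -0.43 (-0.59 to -0.18). Of the members 5 were higher (26.3%, against 14.5% of all genes) and 2 lower (10.5%, against 23.4%). Without M-type cell 2, 3 were higher. Calm2 had 25044, 43241, 16585, 19074 and 8984 in M-type and 6727, 9072, 11299, 14710.3 and 9002 in NR, a log2 ratio of 1.15 (0.78 to 1.35). M-type cells 1 to 4 were above every NR cell, and M-type cell 5 lay among them. Camk4, a nuclear calmodulin kinase, had 2.67, which came to 1.68 without M-type cell 2. Rcan2, in the calcineurin pathway, had -0.90, and the NFAT family member Nfat5 had -0.89. S100 proteins and annexins (16 of 26 passed) had a median of -0.08 with 4 lower (25.0%, near the 23.4% of all genes) and 0 higher, and with a cell left out 2 to 6 were lower and up to 3 higher.

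Most astrocyte identity genes had a lower level in M-type, as did most of all genes, while the summed shares overlapped. Of 30 genes 27 passed, with 5 above 0 and 22 below, where 43.5% of all genes were above 0. The median was -0.61 (-0.92 to -0.48). At 2-fold, 9 were lower (33.3%, against 23.4% of all genes) and 1 higher (3.70%, against 14.5%). The list took 1.84% to 3.12% of the reads of M-type cells and 1.36% to 3.10% of those of NR cells, which overlapped. Vim, an intermediate filament protein, had 134900.0, 207085, 103841, 96299 and 115575 normalized counts in M-type and 163744, 59896, 80528, 42596 and 72942 in NR, a log2 ratio of 0.65 (0.42 to 1.04). Cst3, a secreted protease inhibitor, had -0.80 (-1.42 to -0.17), and Fabp7, a fatty acid carrier of radial glia, 0.63 (-0.48 to 1.42). Nes, the progenitor filament nestin, was the 1 member called higher, at 1.00 (0.74 to 1.51). Sox9, a transcription factor of astrocytes named after its values were seen, had 388, 4075, 1258, 1460.4 and 2752 against 6149, 5327, 3503, 4452 and 9056, with M-type cell 2 above 1 of the NR cells. The solute carriers (132 of 335 passed) had a median of -0.53 (-0.64 to -0.43), with 47 lower (35.6%) and 16 higher (12.1%). Slc19a2, a thiamine carrier, had like Slc9a9 every M-type cell above every NR cell, at 1914, 3284, 1740.3, 1816 and 1524 against 8.50, 659, 858, 1451 and 942. The interferon and antigen presentation list (19 of 31 passed) had a median of -0.58 (-0.92 to -0.41), with 8 lower (42.1%) and 1 higher (5.26%). Its sum was 587 to 933 CPM in M-type cells and 545 to 1171 in NR cells, which overlapped, and the highest sums were those of NR cells 1 and 3.

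EtOH is oxidized by alcohol dehydrogenases and catalase and its product by aldehyde dehydrogenases. Of 25 such genes 14 passed, with a median of -0.15 (-0.48 to -0.01), 3 lower and 0 higher. The share of lower members, 21.4%, was near the 23.4% of all genes, and without NR cell 2 4 members were higher. Aldh1a1, a cytosolic aldehyde dehydrogenase that also makes retinoic acid, had 2174, 1620.3, 353, 361 and 3582 in M-type and 6015, 66894, 15642, 83.7 and 25967 in NR. NR cell 4 was the lowest of all 10 cells and the other 4 NR cells were above every M-type cell, and the log2 ratio was -3.82 (-4.35 to -2.88). Adh5 had -0.33 (-0.55 to 0.69), Aldh7a1 0.24 (-0.06 to 0.50), and Aldh2, the mitochondrial enzyme named here for its role, -0.77 (-1.25 to -0.14). Immediate early genes (24 of 34 passed) had a median of 0.07 (-0.12 to 0.28), with 4 higher (16.7%, near the 14.5% of all genes) and 0 lower. With a cell left out, up to 2 were lower. Ctgf, Cyr61 and Dusp6, their members with the most reads, had -0.47, -0.48 and 0.10. Egr1, singled out after its values were seen, had 342, 10731, 2145, 5129 and 4614 against 565, 1277, 750.0, 1.20 and 0.927, with M-type cell 1 below 3 NR cells and a log2 ratio of 3.15 (2.56 to 3.80). Fos had 0.05 (-0.38 to 1.21). Heat shock and unfolded protein genes (27 of 33 passed) had a median of -0.28 (-0.32 to 0.02), antioxidant genes (36 of 38) -0.09, cholesterol synthesis (24 of 24) 0.31 (-0.01 to 0.90), the actin and microtubule cytoskeleton (41 of 43) 0.33 and extracellular matrix genes (29 of 41) -0.24.

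The cells did not fall into 2 clear groups by type. Over the 9314 genes, Pearson's r of log2(normalized count + 1) was 0.529 to 0.728 between M-type cells (median 0.616, 10 pairs), 0.453 to 0.676 between NR cells (median 0.553, 10 pairs) and 0.459 to 0.769 between types (median 0.560, 25 pairs). These values share genes and depth and carry no test. The pair with the highest r was M-type cell 3 with NR cell 2, and 4 of the 5 cells of each type had their highest r with a cell of their own type. NR cells 4 and 5 and M-type cell 1 were the least like the others, with a mean r of 0.508, 0.528 and 0.519.

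**Figure D5:**
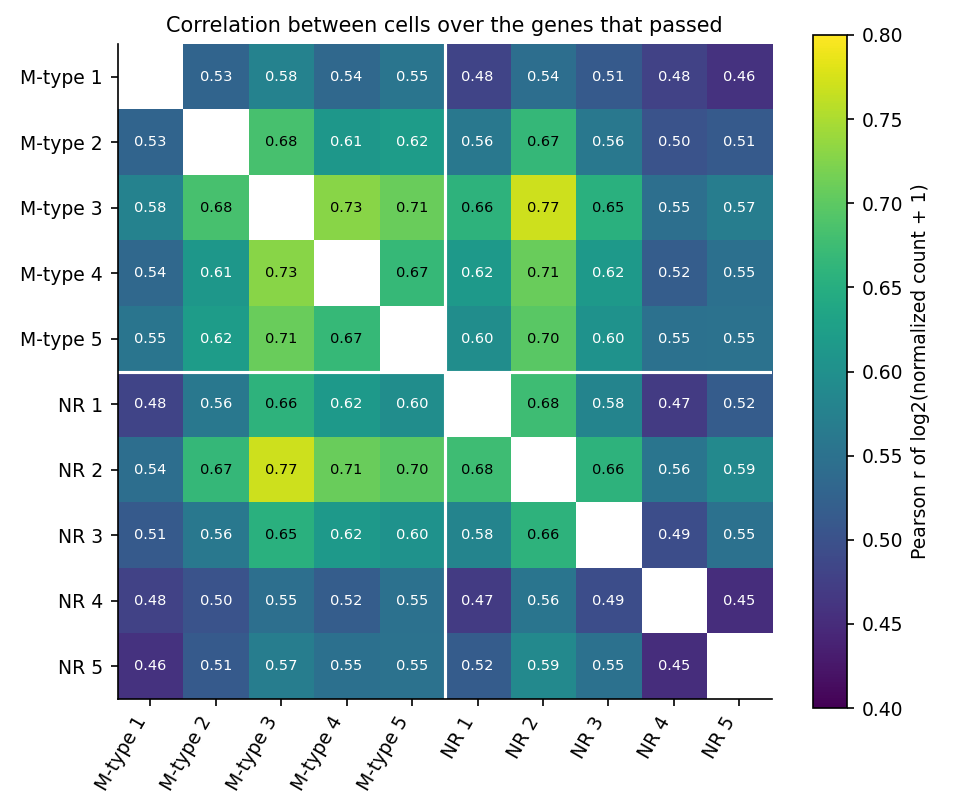
Pearson's r of log2(normalized count + 1) over the 9314 genes for each pair of the 5 M-type and 5 NR cells; the colour scale runs from 0.4 to 0.8 and white lines part the types. The pair M-type 3 and NR 2 has the highest value, 0.77, and rows M-type 1, NR 4 and NR 5 are low throughout.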

How the data were processed

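Transcripts of single aspirated astrocytes were amplified as antisense RNA and sequenced. The authors deposited raw counts per gene symbol for 22 cells; the sources name STAR, HTSeq and VERSE and the GRCm38 (mm10) build, and versions and strand setting are not given in the sources used here. For this report, a size factor per cell was taken as the median of ratios over 3670 genes in all 22 cells and each count was divided by it, and genes with a read in at least 8 of the 10 cells were kept. A level is the mean over 5 cells, a call is a ratio of levels of at least 2-fold, and genes without overlap have every cell of one type beyond every cell of the other. Each cell is its own deposited sample and no label names a pup or culture, so each type is 1 sample and nothing was tested.

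The named genes were, per direction, the 12 with the largest ratio after leaving out the least favourable cell, among genes without overlap, with a mean level of at least 50 and no clone name; of each list described, up to 3 members with the most reads and each member without overlap; and, in calcium lists, the member with the largest such ratio in each direction. Other genes are said to be chosen after their values were seen, or are markers or gene list members given for their role. Some genes that this rule names are not reported here. Members and lists were chosen with earlier results of these data known. Positions are from GENCODE vM21 and promoters from RefSeq (GRCm38.p6). Read totals were 15057892 to 22131076 per cell, and intervals from reads would cover counting error only. The scripts were tested on simulated data. Python 3.11.15, NumPy 2.4.6, pandas 2.3.3, SciPy 1.17.1, matplotlib 3.10.9, R 4.3.3 and, for TMM factors as an alternative, edgeR 4.0.16 were used. Other alternatives were CPM, size factors from the 10 cells, other filters, other averages over cells, thinned reads, a pseudocount and leaving out each cell.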

Additional observations from a re-analysis of the deposited data

Results flagged for a closer look

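In 7 of 136 groups of 5 cells examined, 1 cell stood apart from the other 4 by Dixon's criterion (gap over range above 0.71); chance gives about 1 such group in 20. M-type cell 2 stood apart in 3 of them. It had 0.310% of its reads in S phase genes, where the other M-type cells had 0.1345% to 0.164%, and 0.729% in the calmodulin list, where the others had 0.344% to 0.423%. Its Trappc6b value, as log2(normalized count + 1), was 12.8 against 10.0 to 10.6.

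NR cell 2 had 0.827% of its reads in the genes of EtOH and acetaldehyde metabolism and the other NR cells 0.0620% to 0.267%. Aldh1a1, at 66894 normalized counts in this cell, is a member of that list. NR cell 5 had 0.0611% of its reads in the neuronal list against 0.00919% to 0.0234%, and a Trappc6b value of 0.95 against 7.16 to 8.93. M-type cell 1 had an Arl16 value of 0.70 against 6.07 to 7.29.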

How the results depend on the processing

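The 24 genes without overlap kept the sign of their log2 ratio in 240 of 240 values with a cell left out. This was fixed by their choice, since the remaining cells do not overlap either. Under other settings the sign was kept in 227 of 227 values, again for genes picked for not overlapping. List medians kept their sign in 338 of 370 values with a cell left out and in 332 of 362 under other settings. Genes at least 2-fold higher numbered 2052 with the median over cells and 2035 with the mean of log2 values, beside 2123 and 2091 lower, so that the excess of lower genes was nearly gone under both. With a read required in all 10 cells the counts were 745 higher and 1282 lower, and with a read in at least 5 of 22 cells 2517 and 3570. TMM factors gave 1513 and 2073, and CPM 1400 and 1868. Genes without overlap numbered 49 to 82 above and 59 to 106 below with a cell left out, since 4 cells overlap less often than 5. The calmodulin list median was -0.031 with the median over cells. With the mean of log2 values the purinergic median was -1.25 and the mitochondrial ribosomal median 0.21. With a cell left out these ran from -1.16 to -0.11 and from -0.32 to 0.21, those of the voltage-gated channels from -1.60 to -0.16, and of heat shock genes from -0.32 to 0.022. The cause was not tested. No paired analysis was possible because the labels give the cells no shared replicate numbers and no result comes from a test. With 5 single cells per type, the spread between cells limits these values. Read totals were 19030121 to 22131076 in M-type and 15057892 to 19930655 in NR cells, so that depth differed with the type. With reads thinned to the smallest total, 1408 genes were higher and 2190 lower, and the part of depth was not examined beyond this.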
